A study of Mus musculus with 8 samples.

Results

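The genes described here are 10 transcripts known as targets of the cofactor YAP that lie outside the CCN family of matricellular proteins: Ankrd1, Amotl2, Ajuba, Ptpn14, Nuak2, Axl, Crim1, Nt5e, F3 and Arhgef17. They were taken by their names, and all 10 were among the 12528 genes with a value and among the 12494 that passed the filter on low values. The RNA-seq data came from mouse embryonic fibroblasts (MEFs) isolated from wild-type (WT) and Cav1KO littermates, which lack the membrane protein caveolin-1. The comparison asked how substrate stiffness and the loss of Cav1 bear on these transcripts.

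There were 4 groups of cells with 2 libraries each. WT MEFs and Cav1KO MEFs, both immortalized, were seeded sparsely on stiff or on soft polyacrylamide gels, and RNA was taken after 24 h in every group. No other treatment separated the groups, and their ages are not given in the sources used here. Each genotype was an immortalized cell population, so that the effect of genotype and differences between the populations cannot be told apart. The labels do not say that the 2 libraries of a group came from separate cultures, and the p-values therefore measure the spread between these libraries, which may be technical. In bulk RNA, fewer expressing cells and less RNA per cell cannot be told apart either.

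YAP and its paralog TAZ have no DNA-binding domain of their own. They enter the nucleus when cells are spread, under tension or on a rigid matrix, and there they bind the TEAD transcription factors, which recognize a short core sequence. Kinases of the Hippo pathway oppose them by retaining them in the cytoplasm, and several YAP targets encode proteins that act back on this pathway. Ankrd1 is among the most widely used readouts of YAP activity, whereas some of the other genes are also read by different signals in fibroblasts.

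The libraries held 17089836 to 19944952 reads. Cav1, the deleted gene, was at 1010 ± 91.3 CPM (TMM-scaled reads per 1e6, SD, n = 2) in WT cells on stiff gels and at 1140 ± 25.2 CPM on soft gels, against 0.257 ± 0.0531 and 0.232 ± 0.254 CPM in Cav1KO cells. Of 8 fibroblast markers 7 were listed, with Thy1 missing, and their summed level was 7660 to 7680 CPM in WT cells on stiff gels, 9750 to 9870 CPM in WT cells on soft gels, 3690 to 4440 CPM in Cav1KO cells on stiff gels and 9890 to 10100 CPM in Cav1KO cells on soft gels. This sum moved with stiffness in both genotypes and with genotype mainly on stiff gels, and its part in the results was not tested. Its members did not all move alike. On stiff gels Pdgfrb was higher in Cav1KO than in WT cells (94.6 against 64.4 CPM) and S100a4 was lower (91.3 against 426 CPM). Of 5 macrophage markers only Cd68 was listed, at 0.552 to 4.55 CPM, and none of 5 epithelial, 4 endothelial and 4 skeletal muscle markers was listed.

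The TEAD core, GGAATG, was sought on both strands in the 250 bases upstream of the RefSeq start site (GRCm38.p6), which were at hand for 8 of the 10 genes. The windows of Ankrd1, Amotl2 and Nt5e lie inside the gene bounds given further on, whose starts are further upstream than the RefSeq ones. It occurred in 6 of these 8 promoters, compared with 12.6% of 32851 promoters of the same length. The AP-1 sequence TGANTCA, which does not overlap it, occurred in 1 of the 8, F3, compared with 6.75% of all promoters. A match is a description of the letters and not evidence of binding. The stretches with a match are shown 5′ to 3′ on the strand of the gene because they are the feature that most of these promoters shared, with the match in capitals, and CATTCC is the core read on the other strand. They lie at chr19:36120037-36120066 (−) and chr19:36119950-36119979 (−) for Ankrd1, chr9:102717727-102717756 (+) for Amotl2, chr14:54577830-54577859 (−) and chr14:54577808-54577837 (−) for Ajuba, chr1:189728110-189728139 (+) for Ptpn14, chr7:25788949-25788978 (−) for Axl, chr17:78200157-78200186 (+) for Crim1 and chr3:121723385-121723414 (+) for F3.
Ankrd1, first: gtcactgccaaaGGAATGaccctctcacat
Ankrd1, second: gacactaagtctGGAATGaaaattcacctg
Amotl2: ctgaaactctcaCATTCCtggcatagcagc
Ajuba, first: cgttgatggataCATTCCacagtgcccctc
Ajuba, second: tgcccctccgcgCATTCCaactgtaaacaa
Ptpn14: cctccccggacgCATTCCtggcccgcccag
Axl: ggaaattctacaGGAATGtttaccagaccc
Crim1: agggcgggggggGGAATGaggtaggatggg
F3, AP-1: cgctgtTGAATCAcggtTGAGTCAcccctt

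Ankrd1 and Ajuba each carried the core 2 times in this window, and the F3 stretch held 2 AP-1 sequences. The F3 and Nt5e windows held no TEAD core, which says only that these letters are not in the window.

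The level per kilobase of exon differed widely among the genes. Axl was the highest, with a mean of 136 CPM per kb over the 8 libraries, followed by Ajuba at 24.1, Amotl2 at 18.1, F3 at 14.8 and Crim1 at 10.8 CPM per kb. Arhgef17 was at 5.59, Ankrd1 at 4.52, Ptpn14 at 3.89 and Nuak2 at 1.42 CPM per kb. Nt5e was nearly silent, with 0.0978 CPM per kb and only 5 to 29 reads in a library.

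In WT cells, 5 of the 10 genes were higher on stiff than on soft gels and 1 was lower, by limma at an adjusted p below 0.05. Over all genes tested, 22.1% were higher and 26.3% lower, 48.4% in all. The median change of the 10 genes was 0.23 on the log2 scale, compared with −0.02 over all genes. In Cav1KO cells 2 genes were higher and 2 lower, against 27.9% and 28.2% of all genes (56.1% in all), with a median change of 0.19 compared with −0.02. The count of lower genes in Cav1KO cells is thus near the background, and so is that of higher genes. Each stiffness contrast shares libraries with both genotype contrasts, and the difference between the responses uses all 8, so that these comparisons are not independent.

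**Figure D1:**
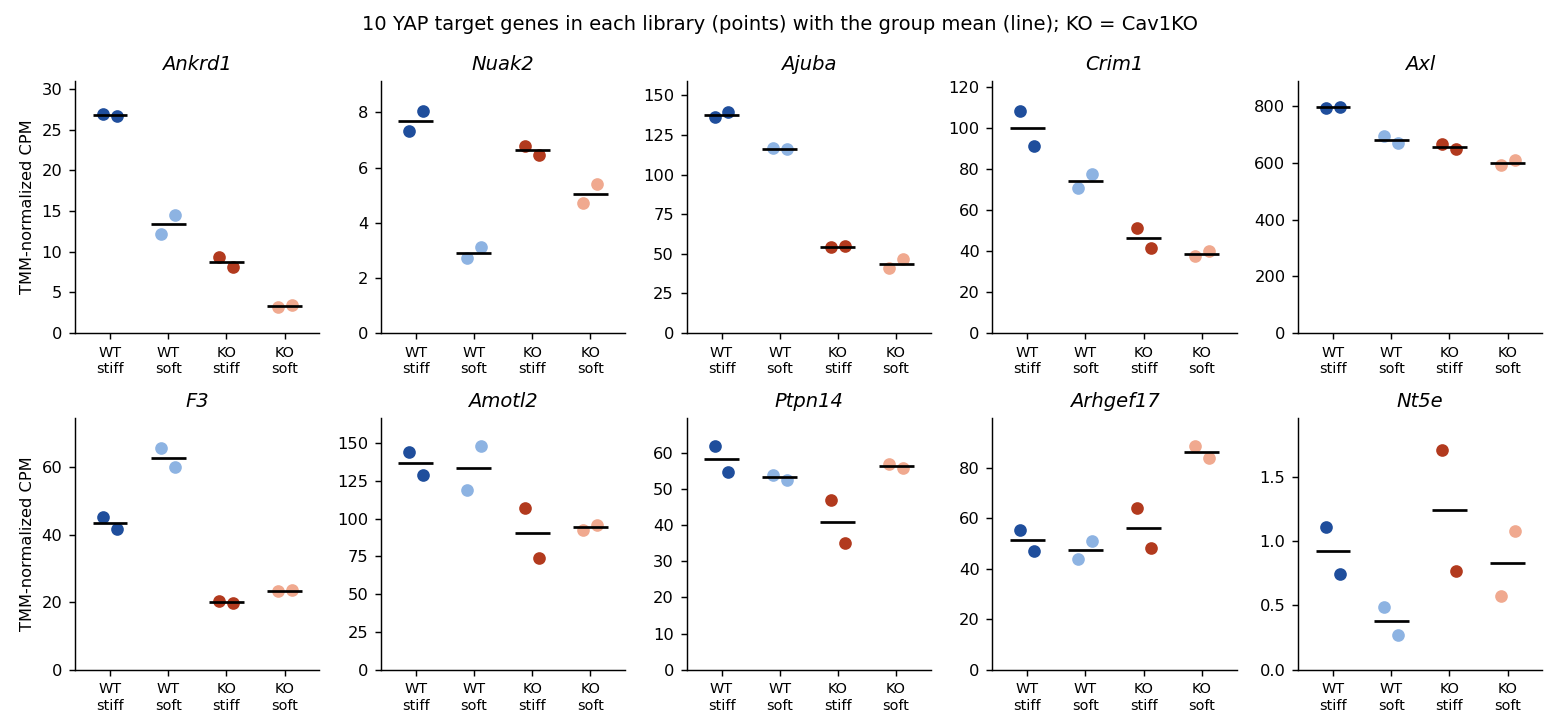
TMM-normalized CPM (y axis, from 0, with its own scale for each gene) of the 10 genes in the 8 libraries, which are points placed by genotype and gel (KO is Cav1KO), with a line at the group mean. Ankrd1 fell from 26.9 CPM in WT cells on stiff gels to 3.32 CPM in Cav1KO cells on soft gels with no overlap between groups, whereas the libraries of Amotl2 and Nt5e overlapped between stiff and soft gels in Cav1KO cells.

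Ankrd1 (ENSMUSG00000024803, chromosome 19, 36111961 to 36120099, minus strand, GRCm38) encodes an ankyrin-repeat protein that acts in the nucleus as a transcriptional cofactor and in the sarcomere of muscle. Its level was 27.0 and 26.7 CPM in WT cells on stiff gels, 12.2 and 14.5 CPM in WT cells on soft gels, 9.30 and 8.11 CPM in Cav1KO cells on stiff gels and 3.24 and 3.39 CPM in Cav1KO cells on soft gels. The 4 groups followed one another in this order without overlap, and Cav1KO cells on stiff gels stayed below WT cells on soft gels. The gene rose with stiffness 2.01 times in WT cells (log2 fold change 0.96, SE 0.13, adjusted p 0.000541, limma) and 2.62 times in Cav1KO cells (log2 fold change 1.17, SE 0.13, adjusted p 0.000141). These calls held under all 20 alternatives. The difference between both responses was −0.21 (95% interval −0.63 to 0.22, adjusted p 0.451), so that a loss of the response in Cav1KO cells was not detected, although an equal response is not shown by this test.

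The level of Ankrd1 differed between genotypes more than between gels. It was 3.08 times higher in WT than in Cav1KO cells on stiff gels (Cav1KO minus WT −1.52 on the log2 scale, adjusted p 2.61e-05, limma) and 4.03 times higher on soft gels (−1.73, adjusted p 1.21e-05). The counts behind these values were 62 to 537 reads per library. With a pseudocount of 5 the difference between the responses of Ankrd1 turned to 0.08 on the log2 scale (adjusted p 0.697). It was −0.28 with a pseudocount of 0.5, −0.38 in edgeR and −0.38 in DESeq2, and it was called under 0 of 19 alternatives.

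Dlk2 and Hbegf were among the genes whose pattern over the 8 libraries was most like that of Ankrd1, out of 10055 genes compared. Likeness was the root mean square difference of the centred log2 values, which was 0.1068 for Dlk2 and 0.1256 for Hbegf. Dlk2, a relative of the Notch ligands, was at 82.8 and 86.2 CPM in WT cells on stiff gels, at 36.1 and 40.9 CPM in WT cells on soft gels, at 25.1 and 22.8 CPM in Cav1KO cells on stiff gels and at 11.3 and 12.6 CPM in Cav1KO cells on soft gels. Hbegf, a growth factor that binds the EGF receptor, followed with 39.3 and 34.8 CPM, 14.9 and 15.6 CPM, 11.7 and 9.92 CPM, and 3.71 and 4.73 CPM in the same order. Among the other 9 YAP targets the nearest to Ankrd1 was Ajuba, with a difference of 0.423. This is the nearest of far fewer genes, so it cannot be set against the values above.

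Among the genes whose products act on the Hippo pathway, Ajuba (ENSMUSG00000022178, chromosome 14, 54567472 to 54577558, minus strand) encodes a LIM protein of cell junctions that binds and restrains the LATS kinases. It was at 136.1 and 139.6 CPM in WT cells on stiff gels, 116.5 and 116.0 CPM in WT cells on soft gels, 54.0 and 54.9 CPM in Cav1KO cells on stiff gels and 40.7 and 46.5 CPM in Cav1KO cells on soft gels. All groups were separate, with every WT library above every Cav1KO library. The WT to Cav1KO ratio was 2.53 on stiff gels (log2 fold change −1.32, adjusted p 3.51e-06, limma) and 2.67 on soft gels (−1.40, adjusted p 2.38e-06), and these calls held under all 20 alternatives. The rise with stiffness was small by comparison, 1.19 times in WT cells (log2 fold change 0.24, adjusted p 0.0349) and 1.25 times in Cav1KO cells (0.32, adjusted p 0.00955). The call in WT cells was lost without any one of the 4 WT libraries (adjusted p 0.0899 to 0.128), and the call in Cav1KO cells was lost without the first library on soft gels (0.22, adjusted p 0.0991).

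Amotl2 (ENSMUSG00000032531, chromosome 9, 102716672 to 102733418, plus strand) encodes an angiomotin that binds YAP at junctions and on actin and holds it outside the nucleus. It was at 144.4 and 128.9 CPM in WT cells on stiff gels, 118.8 and 148.0 CPM in WT cells on soft gels, 107.3 and 74.15 CPM in Cav1KO cells on stiff gels and 92.4 and 96.0 CPM in Cav1KO cells on soft gels. Stiff and soft libraries overlapped in both genotypes. The difference with stiffness was 0.04 in WT cells (log2, 95% interval −0.34 to 0.42, adjusted p 0.860, limma) and −0.08 in Cav1KO cells (95% interval −0.46 to 0.30, adjusted p 0.725). The WT to Cav1KO ratio was 1.51 on stiff gels (−0.61, adjusted p 0.0152) and 1.42 on soft gels (−0.49, adjusted p 0.0354). The first of these calls was lost without the first WT library on stiff gels (adjusted p 0.0881) and without the second Cav1KO library on stiff gels (−0.34, adjusted p 0.0689), and the second without the second WT library (−0.33, adjusted p 0.213) or either Cav1KO library on soft gels (adjusted p 0.137 and 0.102).

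Ptpn14 (ENSMUSG00000026604, chromosome 1, 189728268 to 189876695, plus strand) encodes a tyrosine phosphatase that binds YAP and favors its retention in the cytoplasm. Its level was 62.0 and 54.6 CPM in WT cells on stiff gels, 53.95 and 52.55 CPM in WT cells on soft gels, 46.9 and 35.0 CPM in Cav1KO cells on stiff gels and 56.8 and 55.6 CPM in Cav1KO cells on soft gels. The Cav1KO libraries on stiff gels lay below all others and apart from each other. In Cav1KO cells the level was 1.37 times higher on soft than on stiff gels (log2 fold change −0.46, SE 0.13, adjusted p 0.0157, limma), and the value in WT cells was 0.12 (adjusted p 0.462). The call in Cav1KO cells was lost without the second library on stiff gels (−0.26, adjusted p 0.0752) and without the first (adjusted p 0.0786) or the second library on soft gels (adjusted p 0.0631). On stiff gels the gene was lower in Cav1KO than in WT cells (−0.51, adjusted p 0.0111), a call lost without the first WT library (−0.42, adjusted p 0.0764). The same value was −0.30 (adjusted p 0.0455) without the second Cav1KO library on stiff gels and −0.30 (adjusted p 0.0114) after removal of the length trend described further on. The difference on soft gels was 0.08 (adjusted p 0.643). An antisense gene, Gm26574, lies in this locus, the strand setting of the counting is not given in the sources used here, and 177 exon bases are overlapped by other genes.

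Nuak2 (ENSMUSG00000009772, chromosome 1, 132316126 to 132333488, plus strand) encodes an AMPK-related kinase that acts on actomyosin and has been placed in a feedback loop with YAP. Its level was 7.33 and 8.04 CPM in WT cells on stiff gels, 2.72 and 3.12 CPM in WT cells on soft gels, 6.77 and 6.47 CPM in Cav1KO cells on stiff gels and 4.71 and 5.40 CPM in Cav1KO cells on soft gels, from 45 to 146 reads. The order was WT stiff, Cav1KO stiff, Cav1KO soft and WT soft, with no overlap. In WT cells Nuak2 rose 2.63 times with stiffness (log2 fold change 1.15, SE 0.14, adjusted p 0.000296, limma), and this call held under all 20 alternatives. In Cav1KO cells the ratio was 1.31 (0.33, adjusted p 0.0667). Nuak2 was the only one of the 10 genes whose response differed between genotypes at the threshold (difference 0.82, SE 0.19, adjusted p 0.0398), and 4.47% of all genes passed in this direction, 6.0% in the other and 10.5% in all. The same call was lost without any single library other than the first Cav1KO library on stiff gels (0.73 to 0.90, adjusted p 0.0661 to 0.134) and in DESeq2 (1.01, adjusted p 0.108).

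On stiff gels the difference of Nuak2 between genotypes was −0.19 on the log2 scale (95% interval −0.50 to 0.13, adjusted p 0.282, limma) and did not pass the test, unlike that of Ankrd1. On soft gels Nuak2 was 1.73 times higher in Cav1KO than in WT cells (0.63, adjusted p 0.00479), a call that held under all 20 alternatives. The smaller response of Nuak2 in Cav1KO cells thus went with a higher level on soft gels, not with a lower level on stiff gels that passed the test.

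**Figure D2:**
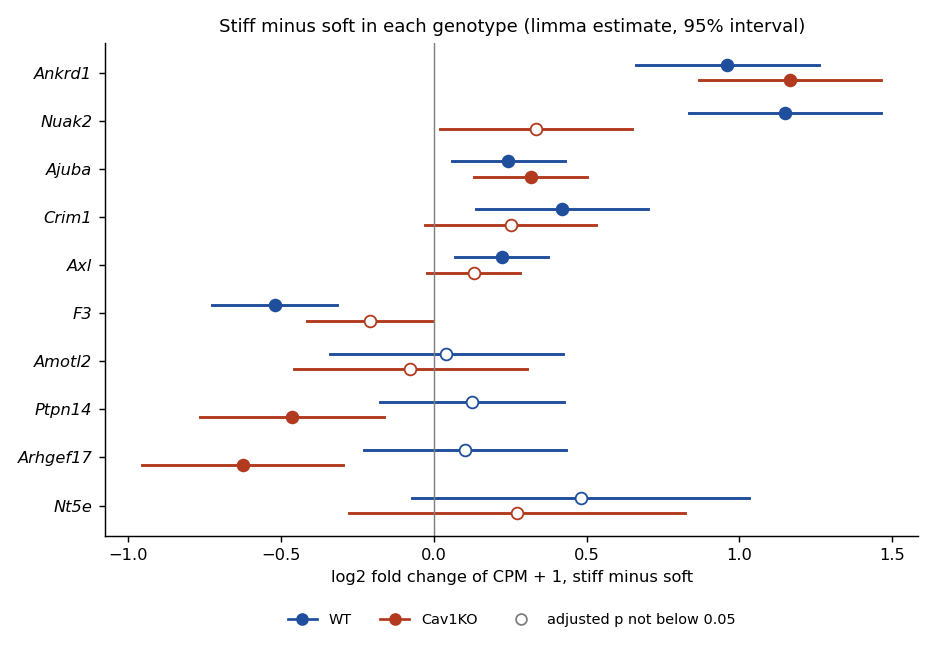
Log2 fold change of CPM + 1 between stiff and soft gels (x axis) for the 10 genes in WT and in Cav1KO cells, as the limma estimate (point, open where the adjusted p is not below 0.05) with its 95% interval (line). Ankrd1 lies far to the right in both genotypes, at 0.96 and 1.17, whereas Nuak2 is at 1.15 in WT and 0.33 in Cav1KO cells.

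Among the genes for surface proteins, Axl (ENSMUSG00000002602, chromosome 7, 25757273 to 25788705, minus strand) encodes a receptor tyrosine kinase for the ligand Gas6. It was at 794.7 and 797.7 CPM in WT cells on stiff gels, 693.8 and 671.3 CPM in WT cells on soft gels, 667.6 and 647.5 CPM in Cav1KO cells on stiff gels and 592.4 and 608.8 CPM in Cav1KO cells on soft gels. The groups did not overlap, but they differed little in size. Axl rose 1.17 times with stiffness in WT cells (log2 fold change 0.22, adjusted p 0.0232, limma), and the ratio in Cav1KO cells was 1.09 (0.13, adjusted p 0.126). The WT to Cav1KO ratio was 1.21 on stiff gels (−0.28, adjusted p 0.00809) and 1.14 on soft gels (−0.18, adjusted p 0.0432). The stiffness call in WT cells was lost without any WT library or either Cav1KO library on soft gels (adjusted p 0.0583 to 0.0906). The genotype call on soft gels was lost without any WT library or either Cav1KO library on soft gels (adjusted p 0.0559 to 0.221) and turned to 0.02 (adjusted p 0.791) under quantile normalization.

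Crim1 (ENSMUSG00000024074, chromosome 17, 78200248 to 78376592, plus strand) encodes a transmembrane protein with cysteine-rich repeats that binds bone morphogenetic proteins. It was at 108.4 and 91.55 CPM in WT cells on stiff gels, 70.8 and 77.9 CPM in WT cells on soft gels, 51.5 and 41.65 CPM in Cav1KO cells on stiff gels and 37.4 and 40.1 CPM in Cav1KO cells on soft gels. All groups were separate, in the same order as for Ankrd1 and Ajuba. The WT to Cav1KO ratio was 2.15 on stiff gels (log2 fold change −1.09, adjusted p 0.000137, limma) and 1.92 on soft gels (−0.92, adjusted p 0.000318). Crim1 rose 1.34 times with stiffness in WT cells (0.42, adjusted p 0.0217), which was lost without the first library on stiff gels (0.30, adjusted p 0.141) or the first on soft gels (0.35, adjusted p 0.134). The log2 fold change in Cav1KO cells was 0.25 (adjusted p 0.114), which was 0.40 (adjusted p 0.0272) without the second library on stiff gels and 0.10 (adjusted p 0.514) without the first. The opposite-strand gene Fez2 lies in part within this locus, and 123 exon bases are overlapped.

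F3 (ENSMUSG00000028128, chromosome 3, 121723537 to 121735048, plus strand) encodes tissue factor, the membrane protein that starts the extrinsic coagulation pathway. Its level was 45.3 and 41.7 CPM in WT cells on stiff gels, 65.6 and 60.1 CPM in WT cells on soft gels, 20.4 and 19.9 CPM in Cav1KO cells on stiff gels and 23.4 and 23.5 CPM in Cav1KO cells on soft gels. F3 was lower on stiff than on soft gels in WT cells, against the direction of the other called genes (log2 fold change −0.52, SE 0.09, adjusted p 0.00178, limma), and the value in Cav1KO cells was −0.21 (adjusted p 0.0759). It was nevertheless lower in Cav1KO cells, with a WT to Cav1KO ratio of 2.16 on stiff gels (−1.07, adjusted p 2.25e-05) and 2.68 on soft gels (−1.38, adjusted p 4.81e-06). The stiffness call in WT cells and both genotype calls held under all 20 alternatives. The promoter window of F3 held AP-1 sequences and no TEAD core, and a link between these letters and its response was not tested.

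Nt5e (ENSMUSG00000032420, chromosome 9, 88327197 to 88372092, plus strand) encodes the ectonucleotidase CD73, which makes extracellular adenosine from AMP. Its level was 1.11 and 0.741 CPM in WT cells on stiff gels, 0.483 and 0.269 CPM in WT cells on soft gels, 1.71 and 0.767 CPM in Cav1KO cells on stiff gels and 0.575 and 1.08 CPM in Cav1KO cells on soft gels. The WT groups did not overlap, while the Cav1KO groups did. None of its contrasts passed the test, with log2 differences of 0.48 for stiffness in WT cells (adjusted p 0.132, limma), 0.27 for stiffness in Cav1KO cells (adjusted p 0.366), 0.19 for genotype on stiff gels (adjusted p 0.535) and 0.40 for genotype on soft gels (adjusted p 0.191). The interval of its stiffness effect in WT cells ran from −0.07 to 1.03, and this effect passed the test in 1 of 19 alternatives, quantile normalization (0.80, adjusted p 0.0198). Its read counts set a wide limit on what could be detected.

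Arhgef17 (ENSMUSG00000032875, chromosome 7, 100869752 to 100932107, minus strand) encodes a guanine nucleotide exchange factor that activates RhoA. It was at 55.5 and 46.9 CPM in WT cells on stiff gels, 44.05 and 51.2 CPM in WT cells on soft gels, 64.1 and 48.2 CPM in Cav1KO cells on stiff gels and 88.6 and 84.1 CPM in Cav1KO cells on soft gels. The Cav1KO libraries on soft gels stood above all others, and the other 3 groups overlapped. Arhgef17 was 1.54 times higher on soft than on stiff gels in Cav1KO cells (log2 fold change −0.63, SE 0.14, adjusted p 0.00599, limma) and 1.81 times higher in Cav1KO than in WT cells on soft gels (0.85, adjusted p 0.00125), and both calls held under all 20 alternatives. The stiffness difference in WT cells was 0.10 (adjusted p 0.586) and the genotype difference on stiff gels was 0.12 (adjusted p 0.514).

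The exon length of a gene moved with its response to stiffness in these libraries. Among the 2203 genes with over 8 kb of exon sequence, the median stiffness effect was 0.06 in WT cells and −0.28 in Cav1KO cells on the log2 scale. Among the 550 genes under 1 kb it was 0.00 and 0.18. The medians of Cav1KO minus WT for genes over 8 kb were −0.18 on stiff and 0.17 on soft gels. Under 1 kb they were 0.06 and −0.16. Libraries of the same group also differed by length from each other, most on stiff gels and for both genotypes. The second Cav1KO library on stiff gels minus the first had a median of −0.21 over 8 kb and 0.17 under 1 kb. For the WT pair on stiff gels these medians were −0.15 and 0.17. On soft gels they were smaller in size, at 0.06 and −0.09 for the WT pair and −0.03 and 0.03 for the Cav1KO pair. Ptpn14 with 13413 exon bases, Arhgef17 with 10795 and Nt5e with 8602 were the longest of the 10 genes, and Ptpn14 and Arhgef17 were those that fell with stiffness in Cav1KO cells.

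**Figure D3:**
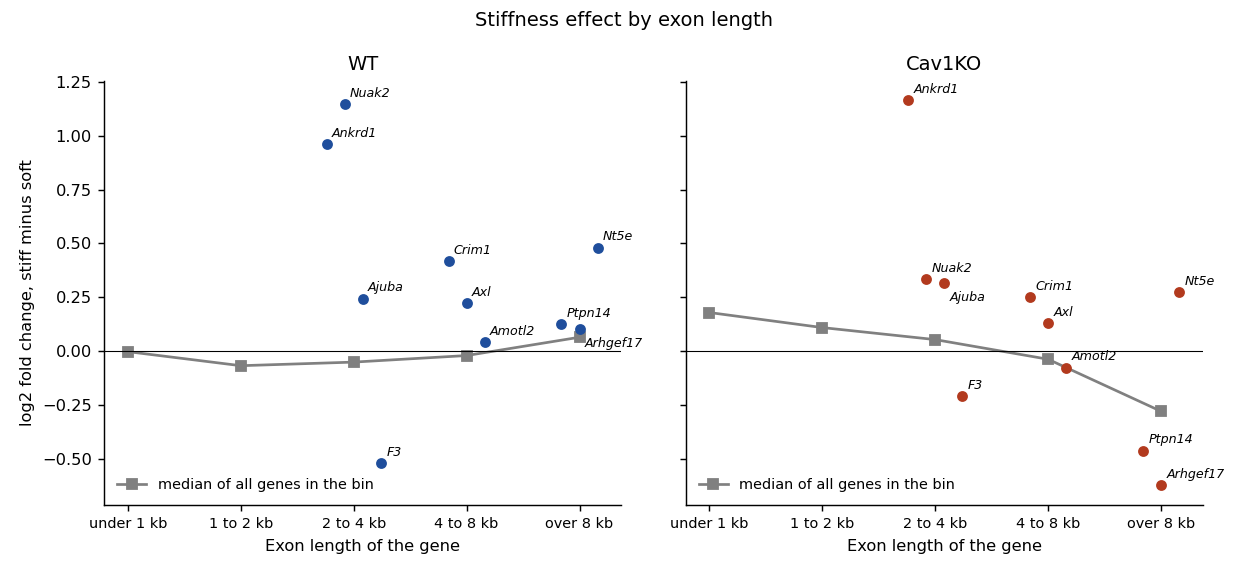
Log2 fold change between stiff and soft gels (y axis) against exon length in 5 classes (x axis) in WT and in Cav1KO cells, with the median of all genes in a class as squares and the 10 genes as labelled points. The median falls to −0.28 for genes over 8 kb in Cav1KO cells, where Ptpn14 at −0.46 and Arhgef17 at −0.63 lie.

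After removal of the length trend from each library, a step added after the data were seen, the stiffness effect on Ptpn14 in Cav1KO cells was −0.10 (adjusted p 0.311, limma) and no longer called. That on Arhgef17 was −0.36 (adjusted p 0.00602) and still called, and Arhgef17 was also higher in Cav1KO than in WT cells on stiff gels (0.28, adjusted p 0.0192). Its genotype difference on soft gels was then 0.67 (adjusted p 0.000153, limma), compared with 0.85 before. Axl (0.16, adjusted p 0.0421), Crim1 (0.31, adjusted p 0.0236) and F3 (−0.31, adjusted p 0.0180) passed the threshold for stiffness in Cav1KO cells after this step. The effect on Ankrd1 was then 1.005 in WT cells and 1.07 in those lacking Cav1.

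The difference of the stiffness response between genotypes was positive for Arhgef17 (0.73, SE 0.20, adjusted p 0.0540, limma) and Ptpn14 (0.59, SE 0.19, adjusted p 0.0713) without passing the threshold. Both values shrank after removal of the length trend, to 0.39 (adjusted p 0.0632) for Arhgef17 and 0.12 (adjusted p 0.510) for Ptpn14, whereas that of Nuak2 was 0.90 (adjusted p 0.0224). Without the first Cav1KO library on stiff gels the differences of Arhgef17 (0.93, adjusted p 0.00986) and Ptpn14 (0.80, adjusted p 0.00815) passed the test, and without the second they were 0.52 (adjusted p 0.118) and 0.38 (adjusted p 0.142). For F3 the difference was −0.31 (adjusted p 0.124), and for Crim1, Amotl2, Axl, Ajuba and Nt5e it lay between −0.07 and 0.21. The median over the 10 genes was 0.14, compared with −0.07 over all genes.

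**Figure D4:**
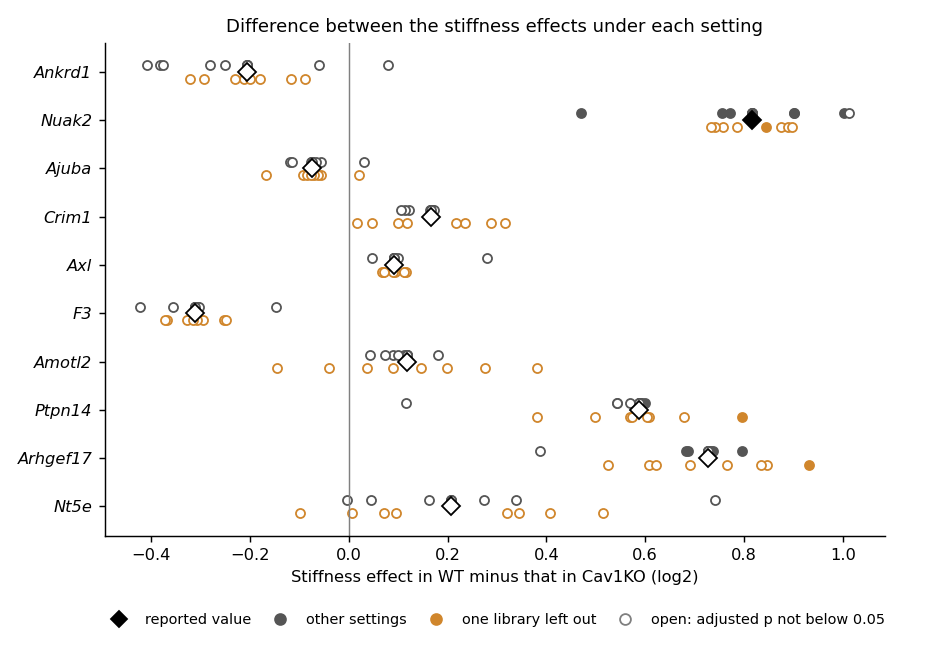
Stiffness effect in WT minus that in Cav1KO cells on the log2 scale (x axis) for the 10 genes, as the reported value (diamond), under the other settings (grey points) and with 1 library left out (orange points), filled where the adjusted p is below 0.05. Nuak2 stays above 0 throughout with a reported value of 0.82, Ptpn14 and Arhgef17 are positive but mostly open, and Ankrd1 lies near −0.21.

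Between genotypes, 7 of the 10 genes were lower in Cav1KO than in WT cells on stiff gels and 0 were higher, against 26.6% and 25.0% of all genes (51.7% in all). The 7 were Ankrd1, Ajuba, Crim1, F3, Amotl2, Ptpn14 and Axl. On soft gels 6 were lower and 2 higher, against 29.9% and 24.1% of all genes (54.0% in all). Those lower were the same genes without Ptpn14, and those higher were Nuak2 and Arhgef17. The median change was −0.56 on stiff and −0.34 on soft gels, compared with −0.03 over all genes in both. Of the genes called lower, Ankrd1, Ajuba, Crim1 and F3 differed by 1.92 times or more on both gels, while Amotl2, Ptpn14 and Axl differed by 1.51 times or less where called.

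**Figure D5:**
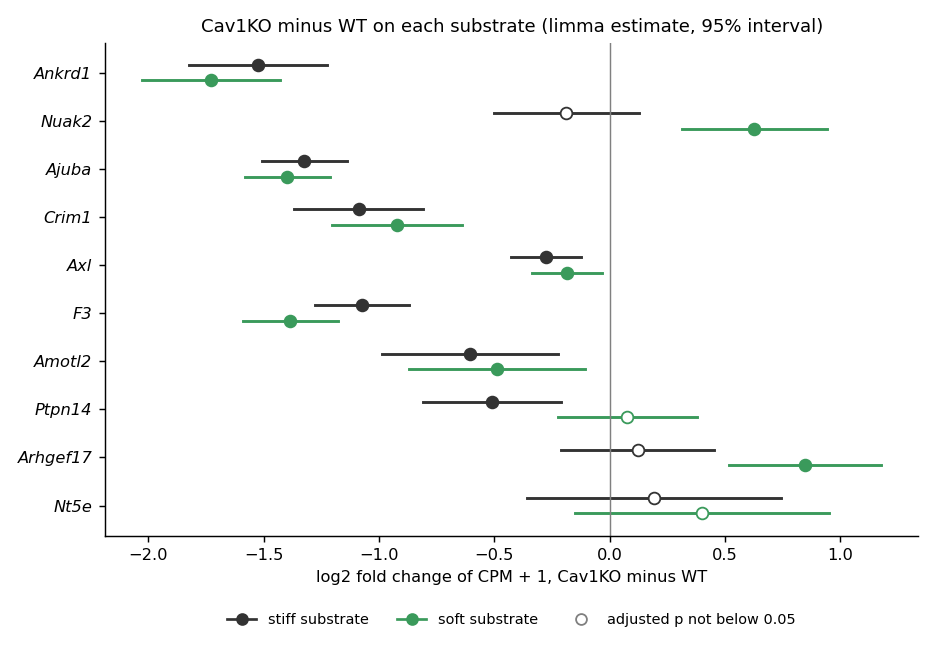
Log2 fold change of CPM + 1 between Cav1KO and WT cells (x axis) on stiff and on soft gels for the 10 genes, as the limma estimate (point, open where the adjusted p is not below 0.05) with its 95% interval (line). Ankrd1, Ajuba, Crim1 and F3 lie left of 0 on both gels, at −0.92 to −1.73, while Nuak2 and Arhgef17 lie right of 0 on soft gels, at 0.63 and 0.85.

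The remaining 13 genes of a conserved YAP signature gave a mixed picture beside these genes. In WT cells 4 were higher and 5 lower on stiff gels, against 22.1% and 26.3% of all genes. In Cav1KO cells 0 were higher and 6 lower, against 27.9% and 28.2% of all genes. The medians were −0.26 and −0.33 on the log2 scale, compared with −0.02 over all genes in both. Between genotypes 1 was higher and 8 lower in Cav1KO cells on stiff gels, against 25.0% and 26.6% of all genes. On soft gels 3 were higher and 6 lower, against 24.1% and 29.9% of all genes. The stiffness response differed between genotypes in 4 of the 13, against 10.5% of all genes. The WT minus Cav1KO difference was positive for Cyr61 (0.63, adjusted p 0.0310, limma) and Rbms3 (0.92, adjusted p 0.0306). It was negative for Gadd45a (−0.88, adjusted p 0.0359) and Igfbp3 (−0.76, adjusted p 0.0431). Cyr61 changed with stiffness by 0.47 in WT and −0.16 in Cav1KO cells, and Rbms3 by −0.55 and −1.47. For Gadd45a these values were −1.07 and −0.19, and for Igfbp3 −0.62 and 0.135. A positive difference is thus not always a larger response in WT cells. The counts of positive and negative differences changed with a library left out. Igfbp3 was at 0.257 and 0.154 CPM in Cav1KO cells, so that its difference depends on the pseudocount, and 14.9% of the read-length windows of Gadd45a are shared with other genes. Rbms3 has 10413 exon bases, and genes over 8 kb had a median difference of 0.28. The calls held under 13 of 19 alternatives for Cyr61 and for Rbms3, 12 of 19 for Gadd45a and 8 of 19 for Igfbp3.

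The transcripts of the cofactors and of their DNA-binding partners were examined beside their targets. Yap1 was at 141.1 to 158.8 CPM in all libraries, and none of its contrasts passed the test (limma, adjusted p 0.135 to 0.909). Wwtr1, which encodes TAZ, was higher in Cav1KO than in WT cells, at 346 ± 11.8 against 155 ± 4.95 CPM on stiff gels (log2 fold change 1.15, adjusted p 2.98e-06) and at 383 ± 2.44 against 179 ± 7.66 CPM on soft gels (1.09, adjusted p 3.79e-06), and it was lower on stiff than on soft gels in WT cells (−0.21, adjusted p 0.0342). Tead4 was lower in Cav1KO cells on stiff (−1.07, adjusted p 0.000346) and soft gels (−0.92, adjusted p 0.000740) and rose with stiffness in WT (0.56, adjusted p 0.0113) and Cav1KO cells (0.41, adjusted p 0.0351). Its level followed the group order of Ankrd1, Ajuba and Crim1, from 19.2 CPM in WT cells on stiff gels over 12.7 and 8.65 to 6.29 CPM in Cav1KO cells on soft gels. The stiffness calls of Tead4 held under 18 of 20 alternatives in WT and 14 of 20 in Cav1KO cells. Of the other TEAD genes, Tead1 passed for genotype on soft gels, where it was higher in Cav1KO cells (0.56, adjusted p 0.0189, limma), and no other contrast of it passed. Tead2 rose with stiffness in Cav1KO cells (0.60, adjusted p 0.000518), was higher in these than in WT cells on stiff gels (0.61, adjusted p 0.000493) and responded differently in the genotypes (−0.57, adjusted p 0.0310). Tead3 fell with stiffness in WT (−0.35, adjusted p 0.0435) and Cav1KO cells (−0.79, adjusted p 0.000722) and was lower in Cav1KO cells on stiff gels (−0.60, adjusted p 0.00355). The stiffness calls in WT cells held under 9 of 20 alternatives for Tead3 and 10 of 20 for Wwtr1. The difference between the responses of Tead2 was called under 12 of 19. Transcript levels say nothing of the location or activity of the proteins.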

How the data were processed

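Poly(A) RNA was sequenced as single reads of 60 nt. The submitters' processing notes name CASAVA 1.8.2, cutadapt, RSEM 1.2.3 and GRCm38. The authors deposited a normalized signal, TMM-scaled CPM per gene and library (reads divided by a TMM-adjusted library size, so that the column sums differ), and its filter on low genes is not given in the sources used here. For 100% of values the deposited CPM were whole multiples, within 0.01 read, of the value of 1 read (0.0502 to 0.0604 CPM), which returned the read counts. No column was left unmapped, and samples were grouped by the genotype and gel in their labels. Depth was 17089836 to 19944952 reads per library, and counting error is only a part of the spread.

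A gene entered the test if 2 or more libraries had 1 CPM or more. The test was limma 3.58.1 (R 4.3.3) on log2(CPM + 1), with a mean-variance trend, all 4 groups in 1 fit (4 residual degrees of freedom), two-sided tests and Benjamini-Hochberg adjustment over all 12494 genes at 0.05. Fold changes are on that scale, which understates those of low genes, while ratios are of mean CPM. The scripts were tested on simulated data. Alternatives were a pseudocount of 0.5 or 5, other filters (none, or a mean of 5 CPM), no trend, edgeR 4.0.16 and DESeq2 1.42.0 on the recovered reads, median centring, quantile normalization, the replicate block, only the 2 groups compared, each library left out, and removal of a length trend, which was added after the data were seen. Annotation was from GENCODE M21 (12451 of 12528 identifiers matched) and promoters from RefSeq GRCm38.p6. Nuak2 and Arhgef17 had no promoter entry and were not searched.

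The 10 genes and the lists were chosen with earlier results of these data known. All 10 genes are named whatever their result, together with the signature genes that passed the test of the difference between responses and the 3 genes nearest to Ankrd1 among those with a mean of at least 5 CPM. Of these 3, 1 is not reported here. Values of Yap1, Wwtr1 and the TEAD genes were added beside these. Replicate numbers were not used to pair samples in the main test, since the labels tie them to no shared batch.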

Additional observations from a re-analysis of the deposited data

Results flagged for a closer look

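Nuak2 is given here because the difference between its stiffness responses in WT and Cav1KO cells passed the test (0.82 on the log2 scale, SE 0.19, adjusted p 0.0398, limma). A single gene of 10 is about the share over all genes, 10.5%. The call held in 11 of 19 alternatives and was lost in DESeq2 and without any 1 of 7 of the 8 libraries, with an adjusted p of 0.0224 to 0.134 over the alternatives and the same direction in all of them.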

How the results depend on the processing

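Across the settings that kept all libraries, 546 of the values of single genes and contrasts kept their direction and side of the threshold, 14 lost a call, 16 gained one and 8 turned sign; with 1 library left out these numbers were 350, 35, 3 and 12. The cause of these changes was not tested. A fit with a library left out also has less precision, so it cannot tell a library's influence from that loss. The number of the 10 genes higher with stiffness in WT cells was 3 without a mean-variance trend and 2 to 5 with a library left out. In Cav1KO cells the number higher was 5 under median centring, 4 after removal of the length trend and 1 to 3 with a library left out, and the number lower was 1 when only the 2 groups compared were fitted and 1 to 2 with a library left out. A positive WT minus Cav1KO difference was called for 2 genes with a pseudocount of 5, in DESeq2 and under median centring or quantile normalization. The added gene was Arhgef17 in 3 of these, and DESeq2 called Arhgef17 and Ptpn14 without Nuak2. In the main fit Arhgef17 (−0.63) and Ptpn14 (−0.46) were called for stiffness in Cav1KO cells and not in WT cells. With a library left out the number of positive differences changed as well. The number lower in Cav1KO cells was 5 to 7 on stiff and 4 to 6 on soft gels with a library left out, and 1 gene was higher on stiff gels after removal of the length trend.

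Over all genes, the responses differed in 559 genes upward and 750 downward, in 314 and 391 without the trend, in 361 and 541 in edgeR, in 774 and 696 in DESeq2, and in 36 to 1747 and 74 to 1689 with a library left out. With the replicate number as a block, 569 and 755 differed, and no call of the 10 genes changed. Same-numbered libraries deviated with r of −0.37 to 0.42, the highest being between WT and Cav1KO cells on stiff gels. Whether the numbers mark a shared batch in some groups cannot be told from these values or from the labels.

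In the other signature genes, a positive WT minus Cav1KO difference was called for 4 with a pseudocount of 5, 5 in DESeq2 and 1 without the trend. A negative one was called for 1 with a pseudocount of 0.5, without the trend, in edgeR and DESeq2 and after length-trend removal. Both numbers changed with a library left out. Higher in Cav1KO cells on stiff than on soft gels were 1 under median centring, 2 under quantile normalization and 0 to 1 with a library left out. On stiff gels 5 to 9 were lower in Cav1KO cells with a library left out.

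Calls were lost for Ajuba in WT cells without the trend (adjusted p 0.0660, limma), in DESeq2 (0.0678) and under quantile normalization (0.0923), for Axl in WT cells without the trend (0.0561) and with only the 2 groups (0.0754), for Ptpn14 in Cav1KO cells with only the 2 groups (0.0712), and on soft gels for Amotl2 without the trend (0.0607) and under quantile normalization (0.0715) and for Axl without the trend (0.0909), in DESeq2 (0.108), under median centring (0.0813) and after removal of the length trend (0.0629). Axl (0.0348) and Crim1 (0.0309) passed for stiffness in Cav1KO cells under median centring. Nt5e passed for stiffness in WT cells under quantile normalization (0.0198). Nuak2 passed for stiffness in Cav1KO cells with a pseudocount of 5 (0.0463), without the trend (0.0284), under median centring (0.0303) and under quantile normalization (0.00484).

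A pseudocount of 5 kept the calls but shrank the log2 values of low genes, for Ankrd1 to 0.72 for stiffness in Cav1KO cells and −1.14 for genotype on soft gels, and for Nuak2 to 0.68 for stiffness in WT cells, 0.47 for the difference and 0.34 for genotype on soft gels.

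Uncalled values, and the genotype call of Axl on soft gels, that turned sign were 0.0788 for the difference of Ankrd1 with a pseudocount of 5, 0.0099 for Amotl2 in Cav1KO cells under median centring, −0.0187 for Amotl2 in WT cells, −0.0894 for Axl in Cav1KO cells and 0.0237 for Axl on soft gels under quantile normalization. After removal of the length trend they were 0.030 for the difference of Ajuba, −0.0035 for that of Nt5e and −0.19 for Ptpn14 on soft gels. With a library left out, the effect in WT cells ran from −0.12 to 0.20 for Amotl2 and −0.0166 to 0.22 for Arhgef17, that in Cav1KO cells from −0.34 to 0.19 for Amotl2 and −0.0345 to 0.58 for Nt5e, that of genotype on stiff gels from −0.0821 to 0.32 for Arhgef17 and −0.12 to 0.50 for Nt5e, and the difference from −0.15 to 0.38 for Amotl2, −0.10 to 0.52 for Nt5e and −0.17 to 0.0198 for Ajuba.

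Leaving out a library left its group with 1 sample, which was assumed to vary like the others. Nt5e has no value under the filter at a mean of 5 CPM. The 5 to 29 reads of Nt5e and 45 to 146 reads of Nuak2 limit their precision, and the 4 residual degrees of freedom limit all tests.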
